A study of Mus musculus with 2148 samples.

Results

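Keratins are the intermediate filament proteins of epithelial cells. The keratin gene family was taken here as every gene of the count table whose symbol is Krt followed by a number, with or without a letter. Keratin-associated protein genes and pseudogenes were left out. The rule found 53 genes among the 48437 genes of the table, 27 on chromosome 11 and 26 on chromosome 15, and each of the 53 had at least 1 read. They were placed in 7 classes by their known sites of expression, with 3 basal keratins, 6 simple epithelial keratins, 13 epidermal and mucosal keratins, 5 keratins of wounded epidermis and skin appendages, 7 keratins of the inner root sheath of the hair follicle, 15 hair keratins and 4 others. The cells were thymic epithelial cells (TECs) of C57BL/6 mice, sorted as single cells and sequenced by RamDA-seq, a full-length method for total RNA of single cells. Adult WT mice gave 620 cells of the medullary mTEChi sort (CD45-, EpCAM+, Ly51- and high in MHC class II), cells of the mTEClo sort (low in MHC class II) and 77 cortical cells (cTECs, Ly51+, from 6-week males). Aire-deficient mice on the same background (Aire-KO, male, 5 weeks old) gave mTEChi and mTEClo cells. WT pups on the first day after birth, their sex not given, gave cells of all 3 sorts. The question addressed was how keratin genes are used by the sorts, ages and genotypes, and how their use in mTECs differs without Aire.

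Keratins of type I and type II pair to form filaments, so an epithelial cell needs at least 1 gene of each type. Pairs mark epithelia: Krt5 with Krt14 the basal layer of stratified epithelia, Krt8 with Krt18 simple epithelia, Krt1 with Krt10 the upper epidermis and Krt4 with Krt13 the oesophagus. Many keratins of the hair follicle are found in little else than the hair shaft and its sheath. In the thymus Krt5 and Krt14 are known for the medulla and Krt8 and Krt18 for the cortex. Medullary cells show T cells antigens of many tissues, with Aire, a nuclear regulator of mature mTECs, needed for a large share of them.

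Cells whose group, age and sex labels agree were summed into 13 pools, since no label numbers the animals. The 4 adult WT mTEChi pools came from 4-week females (82 cells), 4-week males (most of the sort's cells), 5-week males (12 cells) and 6-week males (82 cells). The 3 adult WT mTEClo pools came from males of 4 weeks (66 cells), 5 weeks (74 cells) and 8 weeks (the rest), and each of the other 6 groups was 1 pool. Values in several pools are given in these orders, in CPM, the count of a gene in every 1000000 reads on genes. CPM depend on transcript length, so that 1 gene can be compared between pools but not with another gene. Aire itself stood at 1789.7, 1109.7, 1844.6 and 1125.1 CPM in the WT mTEChi pools and 26.1 CPM in the Aire-KO mTEChi pool. It was at 26.1, 39.5 and 37.1 CPM in the WT mTEClo pools and 0.153 CPM in the Aire-KO mTEClo pool. Reads per cell ran from 203010 to 1823784, with a median of 692880. Epcam, the gene of the sorting marker, was read in every pool (180.7 to 456.1 CPM). H2-Aa, an MHC class II gene, was at 1397.5 to 1838.9 CPM in mTEChi pools and at 371.96 to 873.2 CPM in mTEClo pools. Enpep, which encodes Ly51, was at 392.8 and 185.6 CPM in cTECs and at most 59.1 CPM elsewhere. The 5-week mTEChi pool, labelled male, held both Xist (169.2 CPM) and genes of the Y chromosome. In the 8-week mTEClo pool, also labelled male, Xist was at 35.9 CPM and was read in 94.9% of cells. That share was 7.4 to 42.9% in the other pools labelled male, and its cause was not tested. The 8-week mTEClo pool stood apart from the other 2 of its group, with 77% of its cells in the immature mTEC-like cluster against 18.2% and 18.9%. No experimental batch holds cells of both genotypes, so genotype and batch cannot be told apart. In pool sums, fewer cells of a type and less RNA per cell cannot be told apart either.

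Keratins took 0.289% of all reads, and the 6 most-read keratins took 82.2% of that. Scaled by the length of the principal transcript (CPM per kilobase, mean over the 13 pools), the order was Krt18 (505.3), Krt17 (384.3), Krt8 (222.9), Krt5 (158.8), Krt14 (108.3), Krt7 (58.7) and Krt19 (51.1), with every other keratin below 18 CPM per kilobase. Krt8 and Krt18 were read in every cell. At the other end, 26 keratins had more than 50% of all their reads in 10 cells, and 20 reached 5 reads in fewer than 5% of cells. A cell held 3 to 36 keratins with 5 or more reads, with a median of 9. The median was 11 in WT mTEChi, 12 in newborn mTEChi, 9 in Aire-KO mTEChi, 8 in WT mTEClo and 7 in each of the other 4 groups. After every cell was thinned to 200000 reads, counting 1 read or more, it was 13, 16, 9 and 10 in the first 4 of these groups and 8 to 10 in the rest.

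**Figure D1:**
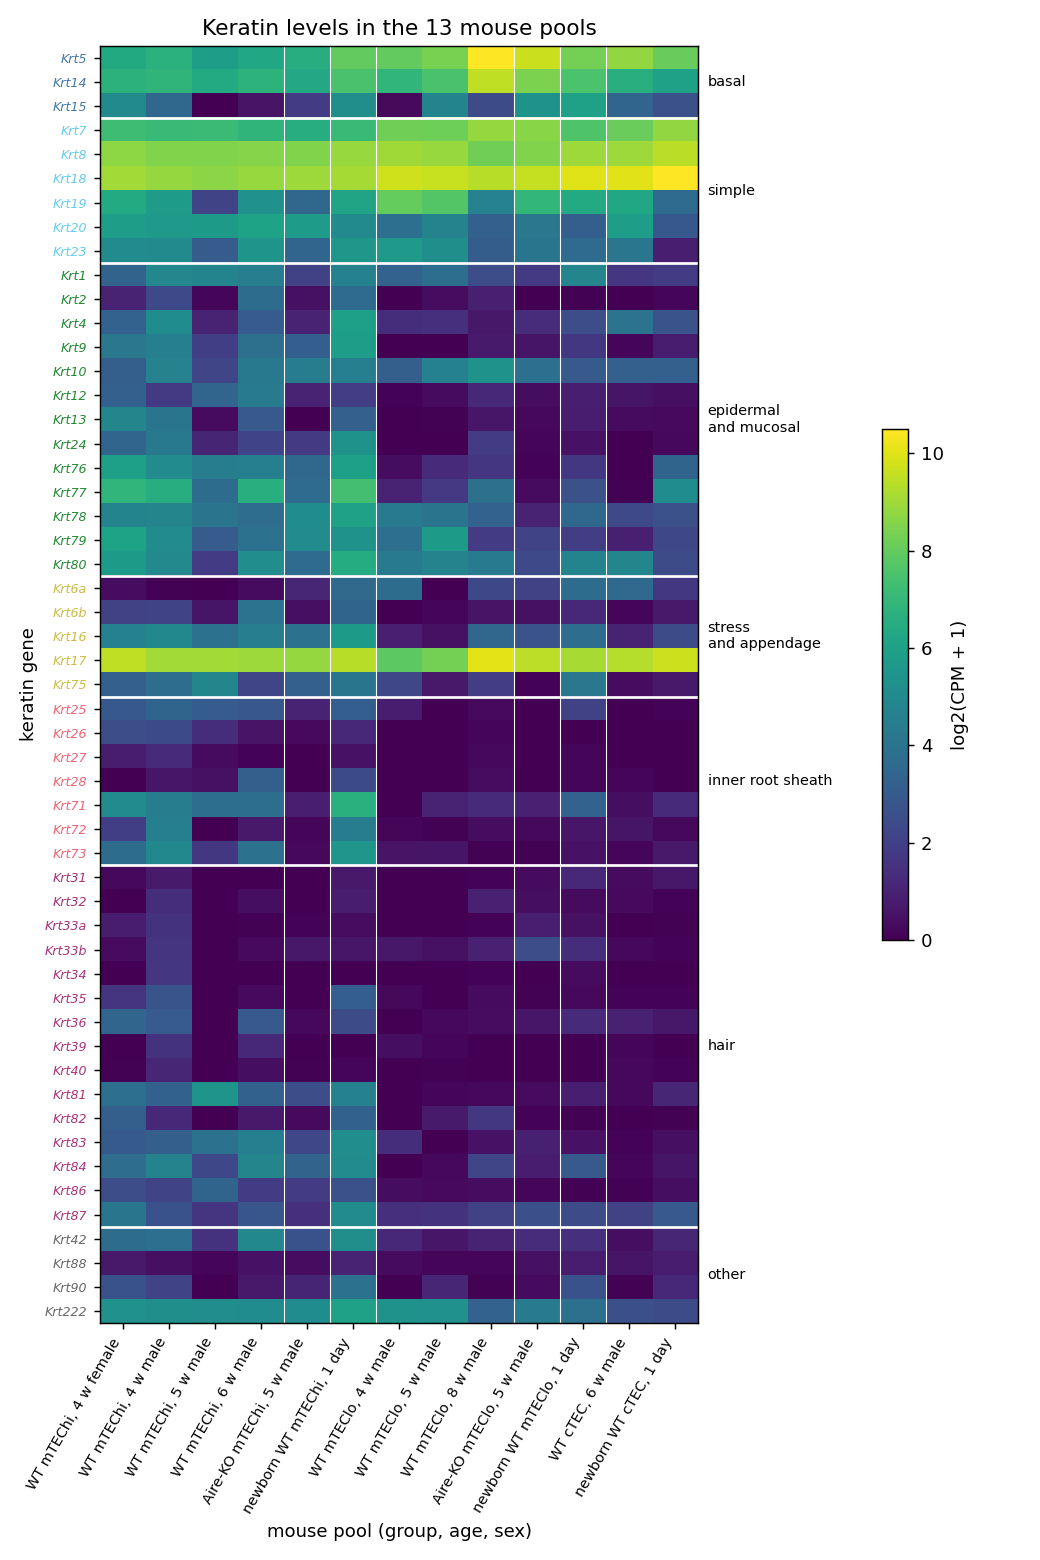
The level of each of the 53 keratins (rows, grouped by class) in each of the 13 pools (columns), as a colour for the log scale of CPM. Simple keratins are read in every pool, and the inner root sheath and hair keratins are brightest in the 4 WT mTEChi pools, which sum to 96.9 to 161.99 CPM, and in newborn mTEChi, at 331.1 CPM.

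By class, simple keratins made up 45.7, 45.7, 50.1 and 49.8% of the keratin level per kilobase in the WT mTEChi pools, and stress and appendage keratins, nearly all of it Krt17, 30.4, 26.8, 33.1 and 26.6%. In the WT mTEClo pools simple keratins made up 74.5, 65.1 and 28.9% and basal keratins 12.3, 17.2 and 41.9%, so the 8-week pool reversed the order of the 2 classes. Type I keratins exceeded type II keratins in every pool, by a ratio of 1.59 in newborn mTEChi to 2.67 in newborn cTECs.

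**Figure D2:**
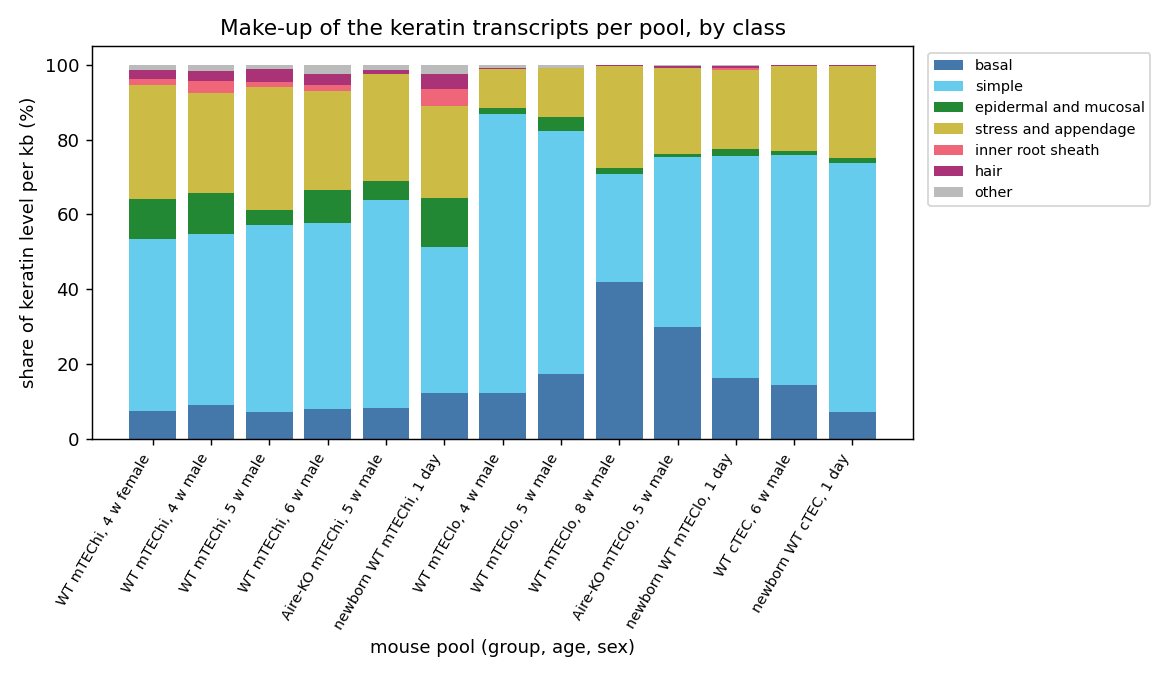
Share of each keratin class in the summed keratin level per kilobase (y axis, percent) for each of the 13 pools (x axis). Simple keratins are the largest class in every pool but the 8-week WT mTEClo pool, where basal keratins reach 41.9%.

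Tests between groups used edgeR on the pool sums, and a gene was called where its fold was 2 or more and its adjusted p below 0.05. Every one of the 53 keratins passed the filter on low counts. Where genes with p below 0.05 before adjustment are counted or named below, the share of all genes at that p is not given. No excess of keratins over other genes can be read from those counts. The contrast of WT mTEChi with WT mTEClo gave 9 keratins that rose and 2 that fell in mTEChi. Across all genes tested 7.54% rose and 4.13% fell. The 9 were Krt20, Krt9, Krt76, Krt26, Krt71, Krt73, Krt81, Krt86 and Krt42, and the 2 were Krt5 and Krt7. All 4 mTEChi pools were above all 3 mTEClo pools in 15 keratins, where 16.1% of all genes were, and below in 4 (Krt5, Krt14, Krt7 and Krt18), where 9.85% were. The median log2 fold change of the 53 keratins was 2.51 against 0.30 for all genes, with 41 keratins above 0 and 12 below. By class the medians were -1.98 (basal), -0.63 (simple), 3.17 (epidermal and mucosal), 2.212 (stress and appendage), 4.32 (inner root sheath) and 3.55 (hair). The number of keratins called ran from 6 to 17 when 1 pool was left out, the most without the 12-cell 5-week mTEChi pool and the fewest without the 4-week female or the 6-week mTEChi pool. Krt5, Krt7, Krt81 and Krt86 kept their call in each of the 7 fits that left out 1 pool. With the age and sex of the pool as a block, which leaves the 4-week and 5-week males to compare the sorts, 49 keratins were tested and 3 were called (Krt9, Krt16 and Krt81), all higher, where 1.83% of all genes were called higher. No keratin was called lower in that fit, where p was below 0.05 before adjustment for 6, and Krt5, Krt7 and Krt86 lost their calls with the same direction (-1.99, -1.14 and 4.51 on the log2 scale). Limma on the mean of log2 values called 8 higher, where 4.95% of all genes were called, and 0 lower, where 2.71% were and where p was below 0.05 before adjustment for 2 keratins. With cells thinned to 200000 reads 16 keratins rose and 4 fell, where 9.86% and 5.22% of all genes did. With experimental batches as units 28 rose and 4 fell, where 25.8% and 9.21% of all genes did. DESeq2 called 23 higher and 4 lower, where 17.9% and 7% of all genes were called. Without the cells of the tuft-like clusters 9 rose and 4 fell, where 7.25% and 4.08% of all genes did.

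The 100 bases before the transcription start of 9 of the 11 called keratins are shown so that a short motif shared by some of them can be seen, with the letters TATAAA in capitals where they stand 16 to 50 bases before the start on the gene's strand (RefSeq, GRCm38.p6). The first 2 are the keratins that fell in mTEChi and the other 7 are keratins that rose.
Krt5 (chr15:101712906-101713005, minus strand): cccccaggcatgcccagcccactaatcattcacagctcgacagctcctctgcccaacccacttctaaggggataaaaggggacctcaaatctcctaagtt
Krt7 (chr15:101412303-101412402, plus strand): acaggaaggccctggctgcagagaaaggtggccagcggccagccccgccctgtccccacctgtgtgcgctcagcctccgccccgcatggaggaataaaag
Krt20 (chr11:99438154-99438253, minus strand): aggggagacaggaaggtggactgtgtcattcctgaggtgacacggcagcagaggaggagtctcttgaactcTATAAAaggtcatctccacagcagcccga
Krt9 (chr11:100193247-100193346, minus strand): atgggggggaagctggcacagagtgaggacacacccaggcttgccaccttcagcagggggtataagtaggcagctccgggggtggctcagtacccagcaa
Krt76 (chr15:101892921-101893020, minus strand): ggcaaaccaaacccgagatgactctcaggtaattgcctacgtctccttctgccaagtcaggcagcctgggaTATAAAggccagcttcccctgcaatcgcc
Krt26 (chr11:99337966-99338065, minus strand): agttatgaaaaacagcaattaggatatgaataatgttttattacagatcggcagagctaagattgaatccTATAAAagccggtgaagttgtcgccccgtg
Krt71 (chr15:101743098-101743197, minus strand): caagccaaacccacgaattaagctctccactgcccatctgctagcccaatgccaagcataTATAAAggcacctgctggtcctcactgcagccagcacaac
Krt73 (chr15:101802361-101802460, minus strand): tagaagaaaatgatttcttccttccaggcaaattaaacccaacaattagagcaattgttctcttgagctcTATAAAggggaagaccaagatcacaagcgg
Krt42 (chr11:100269952-100270051, minus strand): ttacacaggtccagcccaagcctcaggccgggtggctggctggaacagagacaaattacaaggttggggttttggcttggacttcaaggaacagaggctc
The 6 letters were present at this place in Krt20, Krt76, Krt26, Krt71 and Krt73 and not in Krt5, Krt7, Krt9 or Krt42. Of 36 keratin genes with a RefSeq window, 14 (38.9%) held them, against 2.32% of all 32851 promoter windows. By class they were in 5 of 7 inner root sheath genes, 5 of 9 hair keratin genes, 3 of 10 epidermal and mucosal genes, 1 of 5 simple keratin genes (Krt20) and 0 of 2 basal genes. The match is a match of letters only. RefSeq starts can differ from the gene positions given below, which come from GENCODE. The Krt7 window lies inside the span given for Krt7, and the Krt71 window partly inside that of Krt71. Whether the letters stand at this place therefore depends on the start used.

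Of the 3 basal keratins, Krt5 fell in mTEChi. Krt5 (ENSMUSG00000061527, chr15:101707070-101712898, minus strand), the type II keratin of basal cells, was at 82.8, 103.3, 57.1 and 78.4 CPM in the WT mTEChi pools (80.4 ± 18.9, SD, n = 4) and at 252.1, 334.7 and 1449.2 CPM in the WT mTEClo pools (678.7 ± 668.6, SD, n = 3). The 2 sets of pools did not overlap (log2 fold change -3.36 ± 0.63 (SE), edgeR adjusted p = 0.0151), and the difference on the log2 scale was -1.99 without the 8-week pool, still called. It stood at 91.4 CPM in the Aire-KO mTEChi pool and 817.2 CPM in the Aire-KO mTEClo pool. In newborns Krt5 was at 247.9 CPM in mTEChi, 317.9 CPM in mTEClo and 262.8 CPM in cTECs, and adult cTECs held 441.5 CPM. Every mTEClo pool and the adult cTECs were thus above every adult mTEChi pool, and the highest value was that of 8-week mTEClo. Krt14, its type I partner, was at 107.8, 117.6, 85.1 and 110.1 CPM in mTEChi and 119.8, 176.5 and 727.7 CPM in mTEClo. The pools of Krt14 did not overlap either, yet its difference did not pass the threshold (log2 fold change -1.98 ± 0.59 (SE), edgeR adjusted p = 0.0609), and it was -0.62 on the log2 scale without the 8-week pool. Krt14 was at 80.5 CPM in the Aire-KO mTEChi pool and 343.3 CPM in the Aire-KO mTEClo pool. In newborns Krt14 was at 176.3 CPM in mTEChi, 183.5 CPM in mTEClo and 64.2 CPM in cTECs, and adult cTECs held 97 CPM. Like Krt5 it was highest in the 8-week mTEClo pool, but unlike Krt5 it was lowest in newborn cTECs. Krt15, a basal keratin also known from the hair follicle bulge, was uneven, at 31.3, 10.2, 0 and 0.474 CPM in mTEChi and 0.192, 26 and 4.48 CPM in mTEClo. It was at 2.52 CPM in the Aire-KO mTEChi pool and 39.3 CPM in the Aire-KO mTEClo pool. In newborns Krt15 was at 35 CPM in mTEChi, 63.3 CPM in mTEClo and 5.1 CPM in cTECs, and adult cTECs held 9.82 CPM. In single cells the basal pair split the mTEClo sort: Krt5 had a lower quartile of 17.8 CPM and an upper quartile of 1783.04 CPM over WT mTEClo cells, against 3.499 and 46.9 CPM over the 620 WT mTEChi cells.

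Among simple keratins Krt7 was lower and Krt20 higher in mTEChi. Krt7 (ENSMUSG00000023039, chr15:101411043-101430313, plus strand), a type II keratin of ducts and glands, was at 149.8, 138.8, 140.9 and 115.5 CPM in the WT mTEChi pools and 294.1, 288.8 and 454.2 CPM in the WT mTEClo pools, a narrow band in the first (136.3 ± 14.6 CPM, SD, n = 4). Its difference passed the threshold (log2 fold change -1.56 ± 0.24 (SE), edgeR adjusted p = 0.00832). It was at 93 CPM in the Aire-KO mTEChi pool and 399.1 CPM in the Aire-KO mTEClo pool. In newborns Krt7 was at 137.2 CPM in mTEChi, 194.5 CPM in mTEClo and 440.9 CPM in cTECs, and adult cTECs held 275.2 CPM. The highest mTEChi pool, that of 4-week females, lay below the lowest mTEClo pool, that of newborns. Krt8 and Krt18 are the pair of simple epithelia, and Krt8 had the narrowest spread of the family relative to its mean. Krt8 was at 419.7, 367.3, 362.7 and 381.1 CPM in mTEChi and 510.6, 470.5 and 302.1 CPM in mTEClo and did not separate the sorts (log2 fold change -0.34 ± 0.17 (SE), edgeR adjusted p = 0.195). It was at 360.5 CPM in the Aire-KO mTEChi pool and 362.5 CPM in the Aire-KO mTEClo pool. In newborns Krt8 was at 466.1 CPM in mTEChi, 495.96 CPM in mTEClo and 673.96 CPM in cTECs, and adult cTECs held 500.7 CPM. Krt18 (ENSMUSG00000023043, chr15:102028180-102032027, plus strand) was at 523.03, 451.8, 406.6 and 465.3 CPM in mTEChi and 849.7, 787.3 and 664.02 CPM in mTEClo. The 2 sorts did not overlap in Krt18, and its adjusted p was under the threshold with a fold short of 2 (log2 fold change -0.92 ± 0.15 (SE), edgeR adjusted p = 0.00893). It was at 505.4 CPM in the Aire-KO mTEChi pool and 754.3 CPM in the Aire-KO mTEClo pool. In newborns Krt18 was at 546.8 CPM in mTEChi, 1003.1 CPM in mTEClo and 1446.1 CPM in cTECs, and adult cTECs held 1035.9 CPM. Both genes of this pair were highest in newborn cTECs.

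Krt20 (ENSMUSG00000035775, chr11:99428403-99438150, minus strand), a type I keratin of the gut lining, was at 58.7, 48.9, 51.2 and 66.8 CPM in WT mTEChi and 13.4, 24.6 and 8.24 CPM in WT mTEClo. Every mTEChi pool lay above every mTEClo pool (log2 fold change 1.71 ± 0.36 (SE), edgeR adjusted p = 0.0213), and the call was lost in 3 of the 7 fits that left out 1 pool and without the tuft-like cells, where the difference was 0.98 on the log2 scale. At 5 reads it was found in 31.6% of WT mTEChi cells and 5.04% of WT mTEClo cells, and its level was 53.6 CPM in the Aire-KO mTEChi pool and 17.1 CPM in the Aire-KO mTEClo pool. In newborns Krt20 was at 31.6 CPM in mTEChi, 7.98 CPM in mTEClo and 6.45 CPM in cTECs, and adult cTECs held 56 CPM. Adult cTECs thus lay at the level of the WT mTEChi pools, and newborn cTECs at that of newborn mTEClo. Cells of the microfold-like cluster, where Krt20 was highest, made up 7.79% of adult and 0.719% of newborn cTECs, and 8 microfold cell markers summed to 842.03 and 237.4 CPM. Their part in the result was not tested. Krt19, a short type I keratin of ducts, was at 85.2, 54.7, 3.5 and 38.8 CPM in mTEChi and 257.1, 206.99 and 24.5 CPM in mTEClo, with its lowest mTEClo value in the 8-week pool. It was at 10.3 CPM in the Aire-KO mTEChi pool and 122.5 CPM in the Aire-KO mTEClo pool. In newborns Krt19 was at 69.7 CPM in mTEChi, 84.4 CPM in mTEClo and 11.8 CPM in cTECs, and adult cTECs held 77.8 CPM. Its groups overlapped, and the difference missed the threshold (log2 fold change -1.96 ± 0.93 (SE), edgeR adjusted p = 0.171). The sum of 11 tuft cell markers moved with Krt19 in mTEClo, at 7778.9, 6826.9 and 671.2 CPM, and its part in the result was not tested. Krt23, a type I keratin of glandular epithelia, was at 32.7, 31.3, 7.38 and 42.7 CPM in mTEChi and 50.1, 36.4 and 7.54 CPM in mTEClo. It was at 9.73 CPM in the Aire-KO mTEChi pool and 15.8 CPM in the Aire-KO mTEClo pool. In newborns Krt23 was at 46.6 CPM in mTEChi, 11.9 CPM in mTEClo and 0.821 CPM in cTECs, and adult cTECs held 16.4 CPM. The 12-cell mTEChi pool and the 8-week mTEClo pool were the lowest of their groups in Krt23.

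Of the 13 epidermal and mucosal keratins, 12 had a positive log2 fold change in mTEChi against mTEClo, and 2 of them, Krt9 and Krt76, rose past the threshold. Krt9 (ENSMUSG00000051617, chr11:100186781-100193246, minus strand), a keratin of the skin of soles and footpads, was at 17.7, 22.3, 2.88 and 13.5 CPM in WT mTEChi and 0.0213, 0.0167 and 0.702 CPM in WT mTEClo (log2 fold change 5.45 ± 1.43 (SE), edgeR adjusted p = 0.0429). It was at 7.82 CPM in the Aire-KO mTEChi pool and 0.491 CPM in the Aire-KO mTEClo pool. In newborns Krt9 was at 56.7 CPM in mTEChi, 2.25 CPM in mTEClo and 0.742 CPM in cTECs, and adult cTECs held 0.108 CPM. The lowest mTEChi pool, that of 12 cells, was above every adult mTEClo pool. Krt76 (ENSMUSG00000075402, chr15:101884351-101892920, minus strand), a type II keratin of the oral palate, was at 60.3, 32.8, 20.3 and 22.3 CPM in mTEChi and 0.256, 1.4 and 2.17 CPM in mTEClo, so its lowest mTEChi pool was far above its highest mTEClo pool (log2 fold change 4.48 ± 0.83 (SE), edgeR adjusted p = 0.0146). It was at 10.8 CPM in the Aire-KO mTEChi pool and 0.0654 CPM in the Aire-KO mTEClo pool. In newborns Krt76 was at 59.6 CPM in mTEChi, 2.26 CPM in mTEClo and 9.43 CPM in cTECs, and adult cTECs held 0 CPM. The neighbour Krt77, a keratin of sweat ducts, was at 117.9, 91.2, 12.1 and 94.9 CPM in mTEChi and 1.09, 2.35 and 13.9 CPM in mTEClo. The 12-cell pool and the 8-week mTEClo pool overlapped in Krt77 and it missed the threshold (log2 fold change 3.48 ± 1.09 (SE), edgeR adjusted p = 0.0674). It was at 11.7 CPM in the Aire-KO mTEChi pool and 0.229 CPM in the Aire-KO mTEClo pool. In newborns Krt77 was at 165.7 CPM in mTEChi, 5.03 CPM in mTEClo and 34 CPM in cTECs, and adult cTECs held 0.0307 CPM. Newborn mTEChi was the highest pool in Krt77 and in Krt9, and 4-week female mTEChi in Krt76.

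The epidermal pair did not move as a pair over the pools. Krt1 was at 9.07, 27.7, 25.7 and 21.6 CPM in WT mTEChi and 8.9, 13 and 4.62 CPM in WT mTEClo, while Krt10 was at 8.16, 24.1, 3.63 and 17.9 CPM in mTEChi and 8.12, 23.8 and 40.4 CPM in mTEClo, and neither passed the threshold (edgeR adjusted p = 0.15 and 0.304). Krt1 was at 3.12 CPM in the Aire-KO mTEChi pool and 2.4 CPM in the Aire-KO mTEClo pool. In newborns Krt1 was at 23.5 CPM in mTEChi, 26.7 CPM in mTEClo and 2.67 CPM in cTECs, and adult cTECs held 2.2 CPM. Krt10 was at 20.1 CPM in the Aire-KO mTEChi pool and 13.4 CPM in the Aire-KO mTEClo pool. In newborns Krt10 was at 22.2 CPM in mTEChi, 6.86 CPM in mTEClo and 8.41 CPM in cTECs, and adult cTECs held 8.24 CPM. Krt10 was thus highest in the 8-week mTEClo pool, where Krt1 was lowest of the WT mTEClo pools. Krt4, a keratin of the oesophagus, was at 8.78, 33.9, 1 and 7.43 CPM in mTEChi and 1.58, 1.63 and 0.613 CPM in mTEClo. It was at 1.05 CPM in the Aire-KO mTEChi pool and 1.53 CPM in the Aire-KO mTEClo pool. In newborns Krt4 was at 59 CPM in mTEChi, 4.57 CPM in mTEClo and 5.51 CPM in cTECs, and adult cTECs held 15.2 CPM. Its partner Krt13 was at 27.2, 16, 0.25 and 6.54 CPM in mTEChi and 0, 0.0333 and 0.542 CPM in mTEClo. The members of this pair were low in the same 12-cell pool and in mTEClo, and their differences missed the threshold (edgeR adjusted p = 0.0737 for Krt4 and 0.076 for Krt13). Krt78, Krt79 and Krt80, type II keratins of differentiating stratified epithelia, overlapped between the sorts. Krt78 was at 25.6, 26.3, 15.4 and 12.6 CPM in mTEChi and 19.9, 15.7 and 8.86 CPM in mTEClo, and at 33.5 CPM in the Aire-KO mTEChi pool and 1.04 CPM in the Aire-KO mTEClo pool. In newborns Krt78 was at 63.5 CPM in mTEChi, 10.4 CPM in mTEClo and 5.14 CPM in cTECs, and adult cTECs held 4.03 CPM. Its lowest pool was Aire-KO mTEClo. Krt79 was at 67.8, 32.7, 7.38 and 14.2 CPM in mTEChi and 13.3, 52.2 and 2.52 CPM in mTEClo, and at 32.7 CPM in the Aire-KO mTEChi pool and 3.44 CPM in the Aire-KO mTEClo pool. In newborns Krt79 was at 40.2 CPM in mTEChi, 2.74 CPM in mTEClo and 3.89 CPM in cTECs, and adult cTECs held 0.922 CPM. Its highest pool was 4-week female mTEChi. Krt80 was at 51.9, 30.1, 2.5 and 34.6 CPM in mTEChi and 19.8, 25 and 18.9 CPM in mTEClo, and at 11.7 CPM in the Aire-KO mTEChi pool and 3.98 CPM in the Aire-KO mTEClo pool. In newborns Krt80 was at 90.1 CPM in mTEChi, 25.9 CPM in mTEClo and 4.24 CPM in cTECs, and adult cTECs held 27.7 CPM. In all 3 the range of the WT mTEChi pools was wider than the difference between the means of the sorts. The other 3 of the class, Krt2, Krt12 and Krt24, had means of 2.37 to 6.03 CPM over the 13 pools.

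Krt17, a type I keratin of wounded epidermis and of hair follicles, was by far the most-read of its class, at 714.3, 522.7, 521.5 and 491.9 CPM in WT mTEChi and 230.7, 316.8 and 1086.97 CPM in WT mTEClo. It was at 458.4 CPM in the Aire-KO mTEChi pool and 706.6 CPM in the Aire-KO mTEClo pool. In newborns Krt17 was at 660.1 CPM in mTEChi, 562.1 CPM in mTEClo and 836.7 CPM in cTECs, and adult cTECs held 640.6 CPM. Its mTEChi pools lay inside the range of its mTEClo pools, where the 8-week pool was again the highest (log2 fold change -0.22 ± 0.53 (SE), edgeR adjusted p = 0.793). Krt16, induced with Krt6 on wounding, was at 23.2, 29, 14.8 and 21.3 CPM in mTEChi and 0.916, 0.4 and 10.1 CPM in mTEClo. It was at 14.1 CPM in the Aire-KO mTEChi pool and 5.35 CPM in the Aire-KO mTEClo pool. In newborns Krt16 was at 52.4 CPM in mTEChi, 12.5 CPM in mTEClo and 4.38 CPM in cTECs, and adult cTECs held 1.03 CPM. All 4 mTEChi pools were above all 3 mTEClo pools in Krt16, yet it missed the threshold (log2 fold change 2.212 ± 1.04 (SE), edgeR adjusted p = 0.167) and was called with the age and sex block. Krt6a, Krt6b and Krt75 had means of 2.69 to 7.81 CPM over the 13 pools, and 45.7% and 50.1% of the 50-base windows of Krt6a and Krt6b are also found in another gene, so their values are uncertain. Krt6a was at 0.268, 0.0484, 0 and 0.244 CPM in mTEChi and 12, 0.0167 and 3.89 CPM in mTEClo, highest in the 4-week pool, and missed the threshold (log2 fold change -5.25 ± 1.59 (SE), edgeR adjusted p = 0.0616).

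All 7 inner root sheath keratins had positive log2 fold changes in mTEChi against mTEClo, and 3 rose past the threshold. Together they summed to 59.4, 86.2, 24.9 and 42.5 CPM in the WT mTEChi pools and 1.41, 1.63 and 2.51 CPM in the WT mTEClo pools. Krt71 (ENSMUSG00000051879, chr15:101733949-101743109, minus strand), a type II keratin of all layers of the sheath, was at 32.8, 20.2, 13 and 13 CPM in mTEChi and 0, 1.08 and 1.4 CPM in mTEClo (log2 fold change 4.32 ± 1.20 (SE), edgeR adjusted p = 0.0494). It was at 0.84 CPM in the Aire-KO mTEChi pool and 0.938 CPM in the Aire-KO mTEClo pool. In newborns Krt71 was at 100.8 CPM in mTEChi, 8.86 CPM in mTEClo and 1.35 CPM in cTECs, and adult cTECs held 0.307 CPM. Newborn mTEChi was the highest pool of all. Krt73 (ENSMUSG00000063661, chr15:101793308-101802346, minus strand), the type II keratin of the sheath cuticle, was at 12, 28.6, 2.25 and 14.1 CPM in mTEChi and 0.447, 0.517 and 0.0444 CPM in mTEClo (log2 fold change 5.29 ± 1.12 (SE), edgeR adjusted p = 0.0219). It was at 0.178 CPM in the Aire-KO mTEChi pool and 0.0327 CPM in the Aire-KO mTEClo pool. In newborns Krt73 was at 44.6 CPM in mTEChi, 0.425 CPM in mTEClo and 0.633 CPM in cTECs, and adult cTECs held 0.0922 CPM. Again newborn mTEChi was the highest pool. Krt26 (ENSMUSG00000075570, chr11:99328550-99337966, minus strand), a type I partner, was rarer, at 4.53, 4.19, 1.63 and 0.488 CPM in mTEChi and 0.0213, 0 and 0.133 CPM in mTEClo (log2 fold change 5.29 ± 1.44 (SE), edgeR adjusted p = 0.0467). It was at 0.212 CPM in the Aire-KO mTEChi pool and 0 CPM in the Aire-KO mTEClo pool. In newborns Krt26 was at 1.31 CPM in mTEChi, 0 CPM in mTEClo and 0 CPM in cTECs, and adult cTECs held 0 CPM. Its groups did not overlap, although its lowest mTEChi pool was under 1 CPM. Krt25, Krt27, Krt28 and Krt72 had means of 0.26 to 3.68 CPM over the 13 pools.

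Hair keratins summed to 73.6, 75.8, 72 and 75.7 CPM in the WT mTEChi pools (74.3 ± 1.84, SD, n = 4) and 4.69, 3.9 and 12.6 CPM in the WT mTEClo pools (7.05 ± 4.78, SD, n = 3). The even sum hid unlike members, since different genes carried it in different pools. Krt81 (ENSMUSG00000067615, chr15:101459061-101463751, minus strand), a type II keratin of the hair cortex, was at 13.1, 8.64, 42.2 and 8.55 CPM in mTEChi and 0.0213, 0.117 and 0.178 CPM in mTEClo (log2 fold change 7.10 ± 1.06 (SE), edgeR adjusted p = 0.00722), the keratin with the smallest adjusted p, and its highest value was in the 12-cell pool. It was at 4.72 CPM in the Aire-KO mTEChi pool and 0.24 CPM in the Aire-KO mTEClo pool. In newborns Krt81 was at 23.2 CPM in mTEChi, 0.837 CPM in mTEClo and 1.2 CPM in cTECs, and adult cTECs held 0.154 CPM. All 4 adult mTEChi pools and newborn mTEChi were above each of the other pools. Krt86 (ENSMUSG00000067614, chr15:101473478-101479986, plus strand), its near copy, was at 4.58, 3.47, 9.39 and 2.64 CPM in mTEChi and 0.256, 0.217 and 0.258 CPM in mTEClo (log2 fold change 4.14 ± 0.70 (SE), edgeR adjusted p = 0.011). It was at 2.67 CPM in the Aire-KO mTEChi pool and 0.0981 CPM in the Aire-KO mTEClo pool. In newborns Krt86 was at 5.09 CPM in mTEChi, 0.05 CPM in mTEClo and 0.326 CPM in cTECs, and adult cTECs held 0.0461 CPM. Of the 50-base windows of Krt81 and Krt86, 37.7% and 43.3% are also found in another gene. Reads of mapping quality under 5 were removed, so reads of such windows may be lost, and the values of both genes are uncertain. Krt84, a keratin of the hair class known from the tongue and the most-read of its class, was at 12.4, 24.6, 3.88 and 26.8 CPM in mTEChi and 0.0213, 0.167 and 3.64 CPM in mTEClo. It missed the threshold (log2 fold change 3.39 ± 1.48 (SE), edgeR adjusted p = 0.144). It was at 9.16 CPM in the Aire-KO mTEChi pool and 0.774 CPM in the Aire-KO mTEClo pool. In newborns Krt84 was at 32.7 CPM in mTEChi, 6.54 CPM in mTEClo and 0.494 CPM in cTECs, and adult cTECs held 0.0922 CPM. Its lowest mTEChi pool and its highest adult mTEClo pool were close to each other. The other 12 hair keratins had means of 0.157 to 7.21 CPM over the 13 pools, and 5 of these 12 (Krt31, Krt32, Krt34, Krt35 and Krt39) were at 0 reads in the Aire-KO mTEChi pool.

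Krt42 (ENSMUSG00000053654, chr11:100262882-100269871, minus strand), a type I keratin of nails, rose in mTEChi with 11.9, 13.3, 1.88 and 28.6 CPM against 1.3, 0.567 and 0.987 CPM in mTEClo (log2 fold change 3.68 ± 0.88 (SE), edgeR adjusted p = 0.0321). It was at 5.24 CPM in the Aire-KO mTEChi pool and 1.55 CPM in the Aire-KO mTEClo pool. In newborns Krt42 was at 35.3 CPM in mTEChi, 1.77 CPM in mTEClo and 1.18 CPM in cTECs, and adult cTECs held 0.323 CPM. The call was lost in 6 of the 7 fits that left out 1 pool. Krt222, an atypical type I keratin, was even in mTEChi at 39, 36.6, 34.9 and 33.3 CPM and was at 40.6, 38.7 and 8.73 CPM in mTEClo. It was at 33.7 CPM in the Aire-KO mTEChi pool and 19.8 CPM in the Aire-KO mTEClo pool. In newborns Krt222 was at 62.5 CPM in mTEChi, 13.6 CPM in mTEClo and 4.27 CPM in cTECs, and adult cTECs held 5 CPM. It had its highest levels in the tuft-like clusters. Krt88 and Krt90 had means of 0.441 and 2.5 CPM over the 13 pools.

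**Figure D3:**
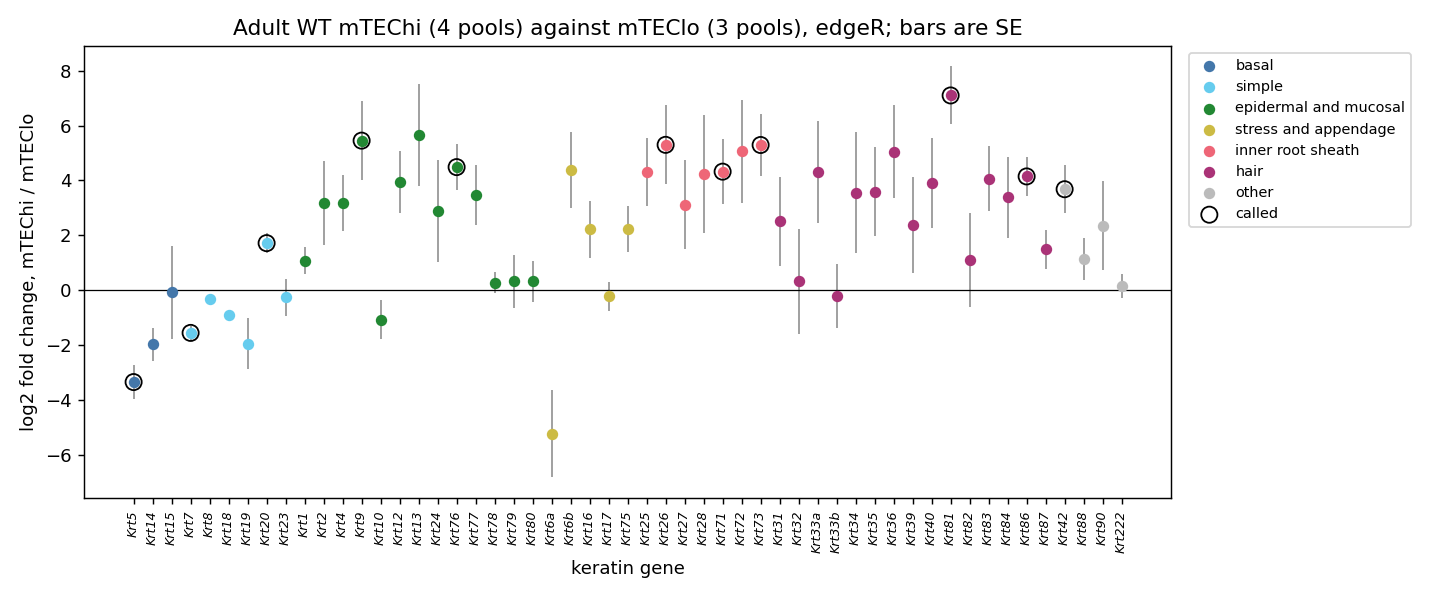
Log2 fold change of each keratin in adult WT mTEChi against mTEClo (points, with bars for the SE) in the edgeR fit on pools, grouped by class, with called keratins ringed. The 9 keratins that rose lie mostly among the epidermal, inner root sheath and hair classes, and Krt5 and Krt7 lie on the side of mTEClo.

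The keratin anchorage list (21 listed, 21 tested) held genes that anchor keratin filaments in desmosomes and hemidesmosomes, and also Vim, the gene of another filament protein. It gave 4 that rose and 6 that fell in WT mTEChi against mTEClo. Of all genes tested, 7.54% rose and 4.13% fell. The median log2 fold change of the list was -0.44 against 0.30 for all genes. Dsg1b, a desmosomal cadherin, rose (log2 fold change 2.28 ± 0.23 (SE), edgeR adjusted p = 0.00195), as did Col17a1, a collagen of hemidesmosomes (log2 fold change 2.90 ± 0.47 (SE), edgeR adjusted p = 0.00954), and Dsg1a (log2 fold change 1.06 ± 0.22 (SE), edgeR adjusted p = 0.0197). Cd151, a tetraspanin of hemidesmosomes, fell (log2 fold change -1.85 ± 0.28 (SE), edgeR adjusted p = 0.00796), with the linkers Dst (log2 fold change -1.87 ± 0.29 (SE), edgeR adjusted p = 0.00835) and Plec (log2 fold change -1.09 ± 0.20 (SE), edgeR adjusted p = 0.0151). Regulators known to bind keratin genes or to drive keratinocyte and hair fates (20 listed, 20 tested) gave 4 that rose and 2 that fell, beside the same shares of all genes. Their median was 0.47. Dlx3, a homeodomain factor of hair and epidermis, rose (log2 fold change 4.59 ± 0.44 (SE), edgeR adjusted p = 0.00169), with Grhl3 (log2 fold change 1.82 ± 0.29 (SE), edgeR adjusted p = 0.00958) and Foxn1 (log2 fold change 1.88 ± 0.39 (SE), edgeR adjusted p = 0.0203), while Klf5 fell (log2 fold change -1.60 ± 0.35 (SE), edgeR adjusted p = 0.0247).

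Without Aire the follicle keratins of mTEChi stood lowest. Inner root sheath and hair keratins together summed to 133.01, 161.99, 96.9 and 118.3 CPM in the WT mTEChi pools (127.5 ± 27.3, SD, n = 4) and 25.5 CPM in the Aire-KO mTEChi pool, below each of the 4. The inner root sheath class alone was at 2.45 CPM and the hair class at 23.1 CPM without Aire. Simple keratins were at 1032.5 CPM against 1269.2, 1092.9, 972.3 and 1110.2 CPM in WT, and basal keratins were at 174.4 CPM against 221.99, 231.1, 142.2 and 188.99 CPM, inside the WT range. Stress and appendage keratins were at 482.4 CPM against 749.1, 567.8, 564.1 and 532.1 CPM, and epidermal and mucosal keratins at 136.4 CPM against 413.3, 361.4, 102.1 and 279.4 CPM. With 1 Aire-KO pool, edgeR called 0 of 53 keratins in either direction and 0% of all genes. Before adjustment, p was below 0.05 for 0 keratins in the higher and 4 in the lower direction (Krt1, Krt13, Krt73 and Krt35). DESeq2 on the same pools called 0 higher and 6 lower (Krt1, Krt13, Krt28, Krt73, Krt32 and Krt35), where 1.79% of all genes were called lower, and limma on the mean of log2 values called 0. With experimental batches as technical units, 9 of WT and 4 of Aire-KO, edgeR called 1 keratin higher (Krt6a) and 11 lower (Krt4, Krt13, Krt27, Krt71, Krt73, Krt31, Krt32, Krt34, Krt35, Krt36 and Krt39), where 1.23% and 4.44% of all genes were called.

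The direction was lower in 44 of 53 keratins, with a median log2 fold change of -1.81 against -0.16 for all genes. It was -5.39 over the inner root sheath keratins and -3.07 over the hair keratins, all 22 of them negative, and both medians are the same with the members at 0 reads placed at their bound. For epidermal and mucosal keratins it was -1.57, for stress and appendage keratins -0.48, for basal keratins -0.26 and for simple keratins -0.20. The Aire-KO pool was below all 4 WT pools in 20 keratins, where 17.5% of all genes were, and above all 4 in 2 (Krt78 and Krt6a), where 16.5% of all genes were. All 4 Aire-KO batches were below all 9 WT batches in 5 keratins (Krt1, Krt4, Krt13, Krt25 and Krt73), where 2.79% of all genes were, and above in 0, where 1.85% were.

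Krt13, the oesophageal type I keratin, had 2 reads in all Aire-KO mTEChi cells (0.00683 CPM) against a WT mean of 12.5 ± 11.8 CPM (SD, n = 4). The ratio of the levels had a 95% counting interval of 507.4 to 15135.7. Its WT pools themselves ran from 0.25 to 27.2 CPM, and its difference had an edgeR p of 0.0278 and an adjusted p of 0.925. Its partner Krt4 was at 0.404, 2.23, 1.62 and 0 CPM in the 4 Aire-KO batches, and at 4.85, 16.6 and 73.2 CPM in the lowest, middle and highest of 9 WT batches. Krt1 stood at 5.82, 3.21, 2.18 and 0.128 CPM in the Aire-KO batches and 8.87, 20.5 and 54.2 CPM in the lowest, middle and highest WT batch (log2 fold change -2.62 ± 0.82 (SE), edgeR adjusted p = 0.925 on pools). Its partner Krt10 showed no such shift, with 20.1 CPM in the Aire-KO pool inside the WT range of 3.63 to 24.1 CPM (log2 fold change 0.70 ± 1.007 (SE), edgeR adjusted p = 0.986).

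Among inner root sheath keratins, Krt71 was at 1.13, 1.09, 0.858 and 0.0911 CPM in the Aire-KO batches against 0.384, 13.1 and 66.9 CPM in the lowest, middle and highest WT batch, and Krt73 at 0.514, 0.0563, 0.0214 and 0 CPM against 1.08, 28 and 62 CPM. The pools gave a log2 fold change of -4.44 ± 1.99 (SE) for Krt71 and -6.19 ± 1.95 for Krt73 (edgeR adjusted p = 0.925 for each). No read of Krt28, Krt31, Krt32, Krt34, Krt35 or Krt39 was found in 292937643 reads of Aire-KO mTEChi, against WT means of 0.22 to 2.23 CPM. The limit was set at 3 reads over the Aire-KO group (0.0102 CPM). Against it, Krt28 was at least 217.3-fold below its WT mean, Krt35 at least 194.2-fold and Krt31 at least 21.5-fold. Few cells held these reads. Over the cells of all groups, 10 cells held 94.7% of the Krt28 reads, 89.2% for Krt35 and 53% for Krt31. A single cell held 45.1, 28.1 and 27.4%, and 14, 26 and 35 cells reached 5 reads. For Krt28, 1 WT pool held most of the WT reads (7.97 CPM in the 6-week pool against 0.0206 to 0.535 CPM in the others). Without the highest WT pool of each, an alternative chosen after seeing the data, these limits were 30.3-fold, 73-fold and 6.3-fold, and 1 WT pool was itself at 0 for Krt35 and for Krt31. Intervals of this kind cover counting error only. The limits cover it for the Aire-KO reads alone and put no error on the WT mean.

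In CPM the 20 keratins below all 4 WT pools were Krt1, Krt6b, Krt7, Krt8, Krt12, Krt13, Krt14, Krt16, Krt17, Krt25, Krt26, Krt27, Krt28, Krt71, Krt73, Krt76, Krt77, Krt81, Krt83 and Krt87, so that 4 of the 6 most-read keratins (Krt7, Krt8, Krt14 and Krt17) were among them. Krt20 (53.6 CPM), Krt222 (33.7 CPM) and Krt5 (91.4 CPM) of the Aire-KO pool lay within the WT pools. In the fit, whose scaling is by TMM and not by the total, Krt8 differed by 0.04 on the log2 scale (95% interval -0.45 to 0.53) and Krt18 by 0.25 (-0.16 to 0.67), while the intervals were wide for Krt81 (-4.28 to 0.66) and Krt84 (-4.67 to 3.14). Krt77 was at 1.91, 59.7, 0.665 and 0.401 CPM in the Aire-KO batches, so 1 batch held nearly all of it, against 48.3, 113.6 and 242.3 CPM in the lowest, middle and highest WT batch. Krt78 was at 33.5 CPM without Aire against 25.6, 26.3, 15.4 and 12.6 CPM with it. The summed level of 12 keratinocyte markers was 282.9 CPM in the Aire-KO pool against 531.1, 420.5, 434.5 and 473.1 CPM in WT, with every marker read in each of these pools. That of 6 mature mTEC markers, Aire among them, was 3464.5 CPM against 6143.98, 4531.6, 6042.4 and 4649.6 CPM. With the levels of Aire itself, given above, taken off this second sum, the Aire-KO pool lies inside the range of the WT pools. The part of the markers in the result was not tested.

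**Figure D4:**
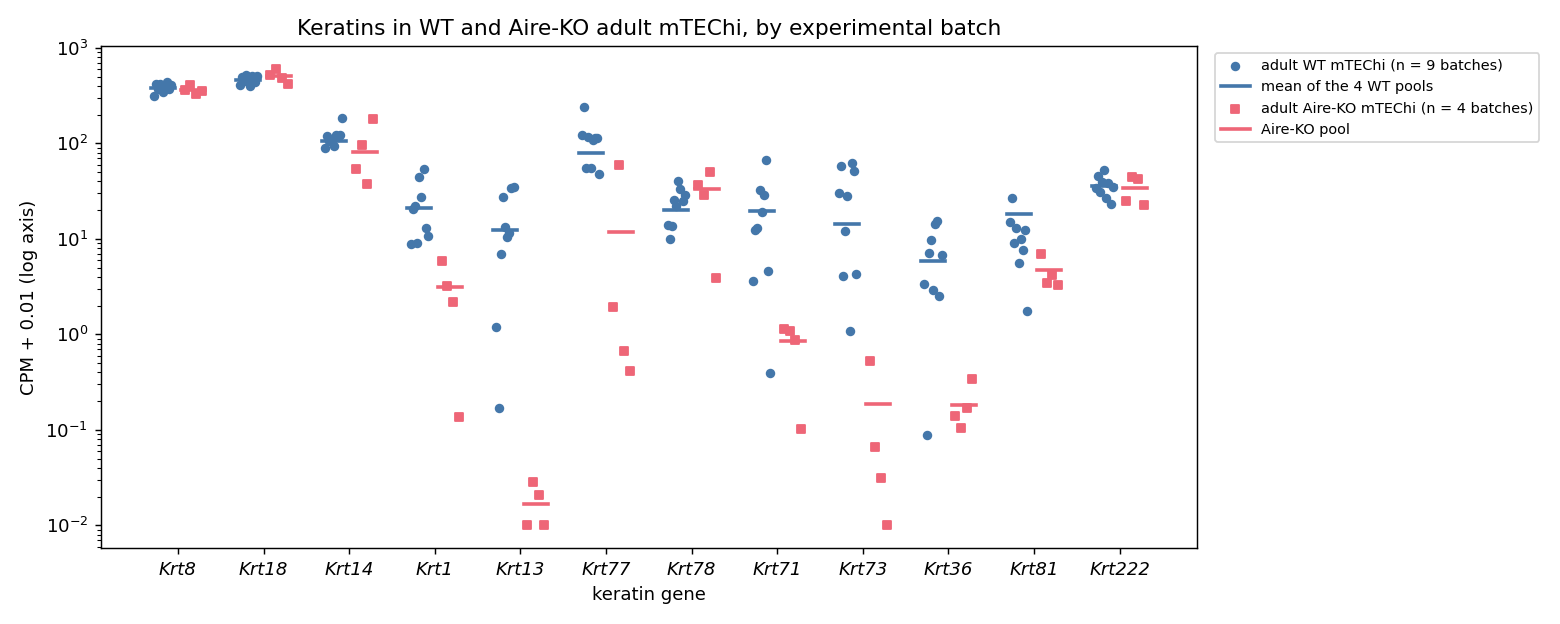
CPM of 12 keratins (log axis, 0.01 added) in 9 WT and 4 Aire-KO batches of adult mTEChi (points), with lines for the mean of the 4 WT pools and for the Aire-KO pool. Krt8, Krt18 and Krt222 overlap between the genotypes, while every Aire-KO batch lies below every WT batch in Krt1, Krt13 and Krt73.

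Counted per cell, an inner root sheath or hair keratin with 5 or more reads was found in 62.4% of WT mTEChi cells, 50.3% of Aire-KO mTEChi cells and 67.3% of newborn mTEChi cells. The WT pools gave 65.9, 62.6, 50.00 and 59.8%, the third from 12 cells, and the Aire-KO batches 53.1, 41.9, 51.7 and 54.8%. The difference in share was therefore far smaller than that in level. Cells with 5 or more such keratins made up 6.61% of WT mTEChi (41 cells), 8.77% of newborn mTEChi (15 cells) and 0.888% of Aire-KO mTEChi (3 cells). After thinning to 200000 reads, 1 read or more of these keratins was found in 76.5% of WT and 54.4% of Aire-KO mTEChi cells, and in 40.3% of adult and 66.9% of newborn cTECs, which are not a known site of these genes. After the same thinning, the share was 33.3, 37.8 and 61.3% of cells in the WT mTEClo pools, the last of them the 8-week pool. Low-level reads in cells that do not use the gene cannot be told apart from weak expression in these shares.

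In Aire-KO mTEClo both the epidermal and the inner root sheath classes lay below all 3 WT pools. Epidermal and mucosal keratins summed to 27.2 CPM in the Aire-KO mTEClo pool and 73, 135.7 and 97.8 CPM in the 3 WT pools, and their median log2 fold change was -2.39, against -0.33 over all keratins and 0.00 over all genes. Inner root sheath keratins, rare in this sort, summed to 1.19 CPM against 1.41, 1.63 and 2.51 CPM, with a median of -2.49, or -2.18 with members at 0 reads at their bound. EdgeR called 0 of 53 keratins and 0% of all genes in either direction. Without adjustment p was below 0.05 for 0 higher and 5 lower keratins (Krt1, Krt76, Krt77, Krt78 and Krt75), DESeq2 called 2 lower (Krt78 and Krt75, where 0.463% of all genes were called lower), and limma and the fit on batches called 0. Krt78 was at 1.04 CPM without Aire against 19.9, 15.7 and 8.86 CPM with it (log2 fold change -3.79 ± 0.74 (SE), edgeR adjusted p = 0.92). The Aire-KO pool was below all 3 WT pools in 10 keratins (13.6% of all genes) and above all 3 in 9 (25.9% of all genes). Both Aire-KO batches were below all 5 WT batches in 8 keratins (Krt1, Krt2, Krt76, Krt77, Krt78, Krt80, Krt75 and Krt86), where 3.59% of all genes were, and above in 4 (Krt15, Krt33a, Krt33b and Krt87), where 8.26% were. Krt5 (817.2 CPM) and Krt14 (343.3 CPM) lay between the WT pools, and Krt15 (39.3 CPM) above all 3. The keratinocyte markers summed to 70.4 CPM in the Aire-KO mTEClo pool, with 1 of 12 at 0, against 296.7, 208.9 and 238.1 CPM, and their part in the result was not tested.

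Whether the Aire-KO difference itself differed between mTEChi and mTEClo was tested by an interaction term, which edgeR called in 0 of 53 keratins and 0% of genes. Before adjustment, p was below 0.05 for 2 higher (Krt78 and Krt75) and 3 lower keratins (Krt13, Krt31 and Krt35). By limma the term was called in 0 keratins and by DESeq2 in 2 (Krt78 higher and Krt32 lower, where 0.168% and 0.3% of all genes were called). For the keratin anchorage and regulator lists, edgeR called 0 genes in both Aire-KO contrasts. In mTEChi 3 regulators were lower with p below 0.05 before adjustment, namely Dlx3 (-1.65 on the log2 scale), Klf5 (-1.53) and Hoxc13 (-5.31), a homeodomain factor of hair keratin genes, each with an edgeR adjusted p of 0.925.

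Newborn mTEChi had more keratin reads than any adult mTEChi pool, 3594.6 CPM against 2843.4, 2468.8, 1914.4 and 2292.1 CPM, and each of the 7 classes lay above all 4 adult pools. The margin was narrow for simple keratins (1297.9 CPM against at most 1269.2 CPM) and for stress and appendage keratins (749.2 CPM against at most 749.1 CPM). Inner root sheath keratins were at 179.4 CPM and hair keratins at 151.7 CPM. EdgeR called 0 of 53 keratins and 0% of genes against adult WT mTEChi, and p was below 0.05 before adjustment for 3 higher and 0 lower keratins (Krt78, Krt6a and Krt87). DESeq2 and limma called 0, and the fit on batches called 2 higher (Krt6a and Krt87, where 0.913% of all genes were called higher). The newborn pool was above all 4 adult pools in 25 of 53 keratins, where 20.1% of all genes were. The median log2 fold change was 0.78 against -0.05 for all genes. Against adult WT mTEClo, edgeR called 0 keratins in newborn mTEClo and 0% of genes (with p below 0.05 before adjustment for 5 higher and 1 lower, Krt7). DESeq2 and limma called 0, and the fit on batches called 2 higher and 7 lower, where 7.08% and 8.92% of all genes were called. Age, and for newborns the unknown sex, cannot be told apart from batch in these contrasts. Of newborn mTEClo cells, 49.2% fell in cTEC-like, 25% in cycling-like and 8.87% in immature mTEC-like clusters. The summed level of 8 cTEC markers was 2888.6 CPM in newborn mTEClo, against 200.1, 256.9 and 563.8 CPM in the adult WT mTEClo pools. Their part in the mTEClo contrast was not tested.

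Within the newborn batches the 3 sorts can be compared at 1 age and in the same batch, since each of 5 batches holds all 3. Newborn mTEClo names a sort here and not a cell type, as 49.2% of its cells fell in cTEC-like clusters. The part of these cells in the orders below was not tested. Krt18 was at 1290.6, 1432.7, 1876.4, 1472.6 and 1452.4 CPM in cTECs, 793.1, 1146.3, 1321.6, 882.4 and 884.9 CPM in mTEClo and 524.6, 531.2, 494.3, 570.4 and 615.1 CPM in mTEChi of batches 16 to 20, so cTECs were highest and mTEChi lowest in 5 of 5 batches. Krt7, at 463.8, 449.9, 498.7, 376.7 and 433.04 CPM in cTECs, 164.7, 202.9, 125.04, 242.96 and 187.9 CPM in mTEClo and 132.5, 135.3, 110.7, 134.98 and 169.8 CPM in mTEChi, had the same order. Krt8 and Krt17 were also highest in cTECs in 5 of 5 batches. Krt14 had the opposite place, at 54, 84.1, 40.5, 70.2 and 70.03 CPM in cTECs and 59, 93, 210.8, 336.6 and 157.9 CPM in mTEClo, lower in cTECs in 5 of 5, while Krt5 was higher in cTECs than in mTEClo in 3 of 5. In newborn mTEChi against mTEClo, 22 keratins were higher in 5 of 5 batches, where 18.1% of all genes were, and 2 lower (Krt7 and Krt18), where 16.4% were. With cTECs against mTEChi, 4 were higher in 5 of 5, where 15.8% of all genes were, and 31 lower, where 23.4% were. Krt71 was at 132.5, 121.8, 39.4, 69.9 and 111.03 CPM in newborn mTEChi and 1.09, 0.388, 0.268, 33.4 and 0.607 CPM in newborn mTEClo, where 1 batch held nearly all of it.

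Adult cTECs were 1 pool of 1 batch, so that the spread in this fit comes from the pools of other groups, as it does for the Aire-KO and newborn groups. They had Krt18 at 1035.9 CPM, higher than in WT mTEChi (log2 fold change 1.44 ± 0.19 (SE), edgeR adjusted p = 0.0113), the 1 keratin that rose in this contrast, where 1.7% of all genes rose. Krt76 had 0 reads in adult cTECs, at least 735.5-fold below the mTEChi mean against the limit of 3 reads (edgeR adjusted p = 0.0238), and Krt86 fell (log2 fold change -6.46 ± 1.37 (SE), edgeR adjusted p = 0.0476), the 2 that fell, where 1.15% of all genes fell. Krt86 had 3 reads in adult cTECs, and the WT mTEChi mean was 108.8 times the cTEC level, with a 95% counting interval of 37.2 to 527.7. The median log2 fold change over the 53 keratins was -3.99, or -3.59 with members at 0 reads at their bound, against -0.49 for all genes. With thinned cells 1 keratin rose and 1 fell, where 1.78% and 1.61% of all genes did. DESeq2 called 4 higher and 24 lower (4.27% and 10.8% of all genes), the fit on batches 4 higher and 3 lower (5.1% and 3.45%), limma 1 higher and 4 lower (3.53% and 2.74%), and the fit without tuft-like clusters 3 higher and 3 lower (2.72% and 1.64%). Of the anchorage list, Dst (log2 fold change 2.84 ± 0.35 (SE), edgeR adjusted p = 0.00843), Cd151 (log2 fold change 2.32 ± 0.35 (SE), edgeR adjusted p = 0.0153) and Plec (log2 fold change 1.44 ± 0.27 (SE), edgeR adjusted p = 0.0289) rose in cTECs against mTEChi. Against WT mTEClo, edgeR called 0 keratins, where 0.0423% of all genes rose and 0.0149% fell, and p was below 0.05 before adjustment for 2 higher and 5 lower keratins. DESeq2 called 1 higher (Krt20) and 4 lower (Krt76, Krt77, Krt79 and Krt222), where 2.04% and 3.18% of all genes were called, and limma called 0. Thymocyte markers summed to 391.8 CPM in the adult cTEC pool, with all 9 read, against 30.2 to 192.5 CPM in the other pools, and their part in these differences was not tested. Of this pool's 77 cells, 48.1% fell in thymocyte-like, 16.9% in stromal-like and 9.09% in cTEC-like clusters. Yet 8 cTEC markers summed to 7336.6 CPM here and 7497.8 CPM in newborn cTECs. In a finer clustering (Leiden resolution 1.6), adult cTECs made up 66% of a cTEC-like cluster of 50 cells. The part of this make-up was not tested.

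Clusters of cells made without the keratin genes show where each keratin was used. In the immature mTEC-like cluster Krt5 stood at 1462.4 CPM and Krt14 at 747.9 CPM, with 5 reads of Krt5 in 99.3% of its cells. The keratinocyte-like cluster (named from markers that include no keratin) had the highest level of Krt1 (92 CPM), Krt10 (130.3), Krt77 (174.97), Krt78 (150.1), Krt79 (139.9), Krt80 (177.04), Krt23 (136.1) and Krt84 (73.8). These were 6 of the 13 epidermal and mucosal keratins, Krt23 and Krt84. The same cluster was also the highest in Krt15 (68 CPM), Krt6a (27.4), Krt6b (21.5), Krt16 (78.2), Krt75 (31.9) and Krt42 (33.6). It was highest too, at lower levels, in Krt31, Krt82 and Krt90. Krt10 reached 5 reads in 43.4% and Krt1 in 36.1% of the cells of the keratinocyte-like cluster. Krt20 was at 668.7 CPM in the microfold-like cluster (27 cells), where 85.2% of cells had 5 reads, and at 105.4 CPM in the next highest. Krt18 (1660.1 CPM) and Krt8 (760.95 CPM) peaked in a cTEC-like cluster of 86 cells. Krt19 peaked in a tuft-like cluster of 25 cells (778.8 CPM) and Krt222 in another of 99 cells (80.8 CPM). In the neuroendocrine-like cluster (46 cells) Krt7 was at 555.8 CPM, close to its highest, 558.95 CPM in an unnamed cluster.

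Inner root sheath keratins and 6 of the 13 epidermal and mucosal keratins peaked in another cluster. An unnamed cluster of 360 cells, with Aire at 1712.8 CPM, held the highest level of each of the 7, among them Krt71 (54.8 CPM), Krt73 (41.3), Krt72 (35.3) and Krt25 (15.9). It was also the highest in Krt2 (12.1 CPM), Krt4 (58.3), Krt9 (43.4), Krt13 (23.7), Krt24 (28.6) and Krt76 (70.4), while Krt12 peaked in the mature mTEC-like cluster (7.07). The inner root sheath and hair keratins of the cluster of 360 cells summed to 281.5 CPM, and 73.6% of its cells had at least 1 with 5 reads, yet Krt71 reached 5 reads in only 18.9% and Krt73 in 13.6% of them. It held 98 newborn and 2 Aire-KO mTEChi cells, and nearly all of its other cells were adult WT mTEChi. Most Aire-KO mTEChi cells fell into 2 other unnamed clusters, where follicle keratins summed to 30.7 and 23.9 CPM. A cluster made mostly of 1 pool may be that pool rather than a type. Within the keratinocyte-like cluster, where the genotypes can be set side by side (78 WT and 33 Aire-KO mTEChi cells), Krt1 was at 124.7 CPM in WT and 21 CPM in Aire-KO cells, Krt10 at 106.2 and 141.6 CPM, and Krt78 at 108.9 and 193.2 CPM, with no test.

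**Figure D5:**
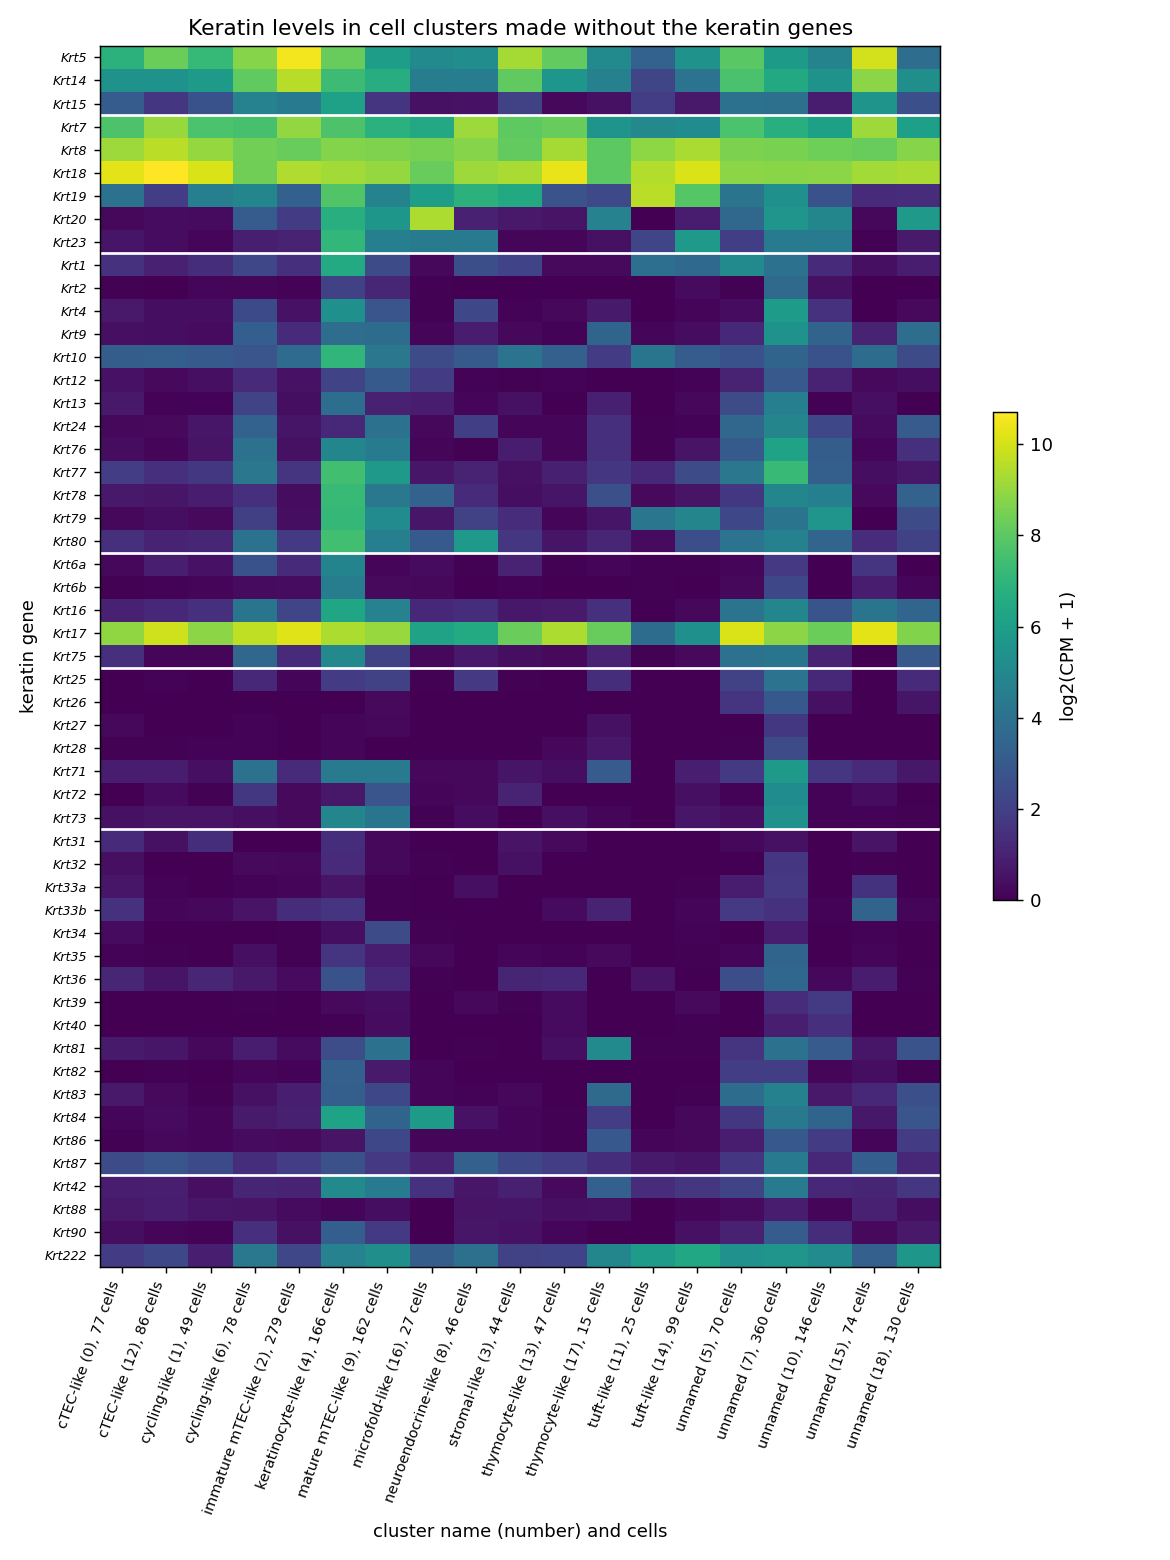
Level of each of the 53 keratins (rows) in the cell clusters made without keratin genes (columns), as a colour for the log scale of CPM. Krt5 and Krt14 are brightest in the immature mTEC-like cluster, Krt20 in the microfold-like cluster, and the inner root sheath keratins in the unnamed cluster of 360 cells.

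Keratins that lie next to each other were often read in the same cells. Over the 620 WT mTEChi cells, and for the 41 keratins with 5 reads in at least 20 cells, the Pearson correlation of log2 values had a median of 0.33 over 35 pairs of next neighbours, 0.077 over the other pairs on the same chromosome and 0.047 over pairs on different chromosomes. All pairs share the same cells, libraries and depths, and neighbours can share sequence. Krt8 and Krt18, neighbours of opposite type, were highest (0.71). Among rare keratins, Krt26 had 5 reads in 32 cells, of which 28 also had 5 reads of its neighbour Krt25, although Krt25 was found in 94 of the 620 cells (r = 0.56). Krt2 and Krt73 shared 22 cells of 31 and 48 (r = 0.61), Krt35 and Krt36 shared 14 of 20 and 24 (r = 0.67), and Krt76 and Krt77 shared 68 (r = 0.57). Krt2 is epidermal and Krt73 belongs to the inner root sheath, so position and class do not coincide in this pair. Not every neighbour pair did so: Krt5 and Krt71 had r = 0.086 and Krt9 and Krt14 r = 0.118. The counting did not use strand, and the spans of 12 keratins, Krt5, Krt7, Krt8, Krt10 and Krt76 among them, overlap that of an annotated gene on the opposite strand. Overlap of exons was not examined, so how far it affected their counts is not known.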

How the data were processed

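The authors cut RamDA-seq reads to 50 bases where longer, trimmed them by quality and adapter with fastp 0.20.0, aligned them to GRCm38 with STAR 2.7.3a, removed mapping qualities under 5 and duplicates (SAMtools 1.9, Picard 2.21.1), and deposited read counts per Ensembl gene, made without strand by HTSeq 0.11.2. From these counts, 1980 cells above the study's filter of 200000 reads on 8000 genes were summed into 13 pools by group, age and sex. Adult WT mice gave 620 mTEChi (444 of them from 4-week males), 357 mTEClo (217 from 8-week males) and 77 cTECs, Aire-KO mice 338 mTEChi and 154 mTEClo, and newborn mice 171 mTEChi, 124 mTEClo and 139 cTECs. No doublet caller was run. Pools were compared with edgeR 4.0.16 (TMM, filterByExpr, quasi-likelihood test, Benjamini-Hochberg adjustment over all genes tested), with DESeq2 1.42.0, limma 3.58.1, other scaling, thinned cells, batches as units and left-out pools as alternatives. No label numbers the mice, so p-values measure only the spread between pools. Clusters (scanpy 1.11.5, Leiden resolution 1) were made without keratin genes and named from marker lists. The scripts were tested on simulated data. Values in every pool are given for keratins with a mean of at least 10 CPM, called in any comparison or highest of their class. Members, classes and lists were chosen with earlier results of these data known. Gene names came from the GENCODE annotation and promoters from RefSeq.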

Additional observations from a re-analysis of the deposited data

Results flagged for a closer look

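Of 48 groups of 4 or 5 samples checked for a sample far from the rest, 3 held one, and chance gives about 1 in 20. Krt17 reached 714.3 CPM in the 4-week female pool, far above the other 3 WT mTEChi pools. Krt81 reached 42.2 CPM in the 5-week mTEChi pool of 12 cells. Krt71 reached 33.4 CPM in 1 of 5 newborn mTEClo batches. For 3 keratins the Aire-KO pool lay outside all WT pools of its sort, on one side in mTEChi and on the other in mTEClo, with none past the threshold of the interaction term (edgeR adjusted p = 1 for each). The share of all genes on opposite sides in this way was not counted. In mTEChi alone the Aire-KO pool was below all WT pools in 17.5% of all genes and above in 16.5%. In mTEClo alone it was below in 13.6% and above in 25.9%. On the log2 scale, the effect in mTEChi minus that in mTEClo was 4.65 for Krt78, -2.90 for Krt81 and -3.09 for Krt87.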

How the results depend on the processing

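Counts of keratins called depended on the unit and the tool. DESeq2 called 6 for Aire-KO in mTEChi, 2 for Aire-KO in mTEClo, 2 for their interaction, 27 for mTEChi against mTEClo, 5 for cTECs against mTEClo and 28 for cTECs against mTEChi. With batches as units, edgeR called 12 for Aire-KO in mTEChi, 32 for mTEChi against mTEClo, 2 and 9 for newborn mTEChi and mTEClo, and 7 for cTECs against mTEChi. For mTEChi against mTEClo, 20 were called with thinned cells and 3 with the age and sex of the pool as a block (Krt9, Krt16 and Krt81, where 1.83% of all genes were called higher), and for cTECs against mTEChi 5 by limma (1 higher and 4 lower, where 3.53% and 2.74% of all genes were) and 6 without tuft-like cells. Leaving out 1 pool gave 6 to 17 for mTEChi against mTEClo, 1 to 5 for cTECs against mTEChi, and 0 to 1 for cTECs or newborn mTEClo against mTEClo, the 1 without the 8-week pool in both. The 5 came without the 5-week mTEChi pool and the 1 without the 4-week male pool. The cause was not tested. Krt14 turned in direction for mTEChi against mTEClo on means of log2 values in limma (0.47). Hair keratins in WT mTEChi were at 82.2 CPM as a mean of cells and 83.7 CPM in thinned cells, and an inner root sheath or hair keratin was found in 59.6% of cells at 5 reads and in 76.3% after thinning, as means of pools. In the cluster where it was highest, at resolutions 0.6 and 1.6, Krt5 stood at 1476.5 and 1569.5 CPM, Krt10 at 114.9 and 246.5 CPM, Krt18 at 1507.8 and 1711.6 CPM, and Krt20 at 624.8 CPM at 1.6. Of the other values, 93 for counts and levels kept their size. Among those for single genes, 53 fell short of a threshold they had passed, 14 came to pass it, 1 turned (Krt14), 3 lower limits of a fold moved (Krt28, Krt31 and Krt35, without the highest WT pool), and the rest kept their side. No paired analysis was possible because the numbers that groups share in the labels number cells, not animals, and the block above rests on age and sex, not on a replicate number. Depth limits the 20 keratins with 5 reads in under 5% of cells, and 1 pool per Aire-KO group limits every contrast of genotype.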
